A study of Mus musculus with 12 samples.

Results

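Rab proteins are small GTPases that mark the membranes of a cell and steer the vesicles that move between them. The genes described here were the rows of a table of gene expression in mouse brain endothelial cells whose symbol is Rab followed by a number, with at most 1 letter and 1 further digit after it, and whose normalized count averaged at least 10 over 12 samples. Of 24015 symbols in the table, 58 had such a name and 46 passed the minimum. The mice were wild-type C57BL/6, aged 19 months for 6 samples (called old) and 3 months for the other 6 (called young). No sample carried a transgene or was treated, as far as the labels say. For each sample, cortex and hippocampus of 2 mice were pooled, endothelial cells were sorted by flow cytometry, and their RNA was sequenced after SMART-seq v4 amplification. The comparison asks how Rab expression in the brain endothelium differed between old and young mice.

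A Rab protein works as a switch. Exchange factors load it with GTP at a particular membrane, where it recruits effectors such as tethers, motors and sorting proteins, and GTPase-activating proteins turn it off, after which a dissociation inhibitor carries it back through the cytosol. Each membrane has its own set, so the Rabs are commonly read as a map of the secretory and endocytic routes. In endothelial cells they serve the uptake and transcytosis of plasma proteins, the recycling of junction and adhesion receptors, and the storage of von Willebrand factor in Weibel-Palade bodies, the secretory granules of this cell type.

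Reads assigned to genes numbered 25809499 to 40393814 per sample. Endothelial genes were abundant at both ages, with Cldn5, a tight junction protein of the blood-brain barrier, at 124826 ± 16088 normalized counts (SD, n = 6) in the old group and 125742 ± 12157 (SD, n = 6) in the young group. Of the 12 endothelial markers, 11 nevertheless had a log2 fold of old over young below 0 (median -0.21). Cdh5, the junctional cadherin of endothelial cells, passed the test as lower, with 9347 to 11965 normalized counts in old and 12549 to 15700 in young samples (log2 fold -0.36, limma adjusted p = 0.0234). The part of this shift in the Rab results was not tested. Old samples also differed from young ones in markers of other cells. The 10 astrocyte markers tested had a log2 fold above 0 in 10 of 10, of which 1 (Aldoc) passed the test, and their summed level was 11716 to 45867 in old and 6998 to 37895 in young samples. The 13 mural markers tested, which mark pericytes and smooth muscle, were below 0 in 13 of 13, of which 2 (Acta2 and Myh11) passed, and summed to 1385 to 13015 in old and 3146 to 20251 in young samples. Of 7 fibroblast markers tested, 4 were below 0 and 3 above, and 1 (Ogn) passed as lower (log2 fold -4.10, limma adjusted p = 0.00817). Ogn had 0 to 9.78 normalized counts in old and 18.7 to 82.5 in young samples. The part of these cells in the Rab results was not tested beyond fits with the mural or the astrocyte score as a covariate. Among 5 red blood cell markers, 4 globin genes were listed at 0 in all samples, while Alas2, an enzyme of heme synthesis in red cell precursors, had 70.9 to 9108 normalized counts in old and 1657 to 7697 in young samples (log2 fold -1.21, interval -3.00 to 0.59). In bulk RNA, a change in the share of cells of a type and a change in RNA per cell cannot be told apart. The samples old 7, old 9 and young 9 were set apart in earlier results of these data by a trend with GC content, and results that changed without them are given so.

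Levels were compared between Rab genes as normalized counts per kilobase of exon, since long transcripts collect more reads. The set was led by Rabs of recycling and of the early secretory route. Rab11a, the Rab of the recycling endosome, was highest at 5018 ± 344 (SD, n = 12; range 4296 to 5528), followed by Rab2a, which acts between the Golgi and the endoplasmic reticulum (ER), at 4426 ± 370. Rab1b at 3569 ± 444 and Rab1 at 3564 ± 353, the paralogs that drive transport from the ER to the Golgi, could not be ranked against each other. Rab14, which acts between Golgi and endosomes, had 2780 ± 289.

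Below these came Rab7, the Rab of late endosomes and lysosomes, at 2406 ± 141 per kilobase. Rab6a, which serves retrograde traffic at the Golgi, had 2304 ± 351. Rab10, which directs vesicles to the plasma membrane, had 2083 ± 166. The list of the 10 highest was closed by Rab12, which promotes degradation of the transferrin receptor, at 1618 ± 206 and Rab5a, the Rab of early endosome fusion, at 1564 ± 128. Between each of these 10 and its neighbour in the order the ranges over the 12 samples overlapped. Overlap of ranges takes no account of which values come from the same sample. It therefore does not decide whether neighbours kept their order within each sample, which was not tested.

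The Rab11a gene alone held 11.0% of the summed Rab level per kilobase, the 5 highest genes held 42.5% and the 10 highest 64.4%. At the other end were Rab36 at 8.42, Rab26 at 6.53 and Rab39b at 5.69 per kilobase, the last of these a Rab known from neurons. In normalized counts, not per length, 30 of the 46 genes lay above 804, the median of all 12777 genes tested. The minimum of the rule fell between Rab26, with a mean of 16.2 normalized counts, and Rab27b, with 9.91. Of the 12 symbols that did not reach it, Rab17, Rab25, Rab44 and Rab9b were listed at 0 in every sample, and Rab27b, Rab3b, Rab15, Rab3c, Rab37, Rab33a, Rab39 and Rab38 averaged between 0.319 and 9.91. Several of these are Rabs of epithelia, pigment cells or neurons. Summed over all 46 genes, the normalized count was 119287 to 131096 in old samples (median 126504) and 126298 to 138991 in young samples (median 133543), so the ages overlapped. As a share of all normalized counts of a sample, the Rab genes held 0.398 ± 0.0152% in old and 0.396 ± 0.0193% in young samples.

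**Figure D1:**
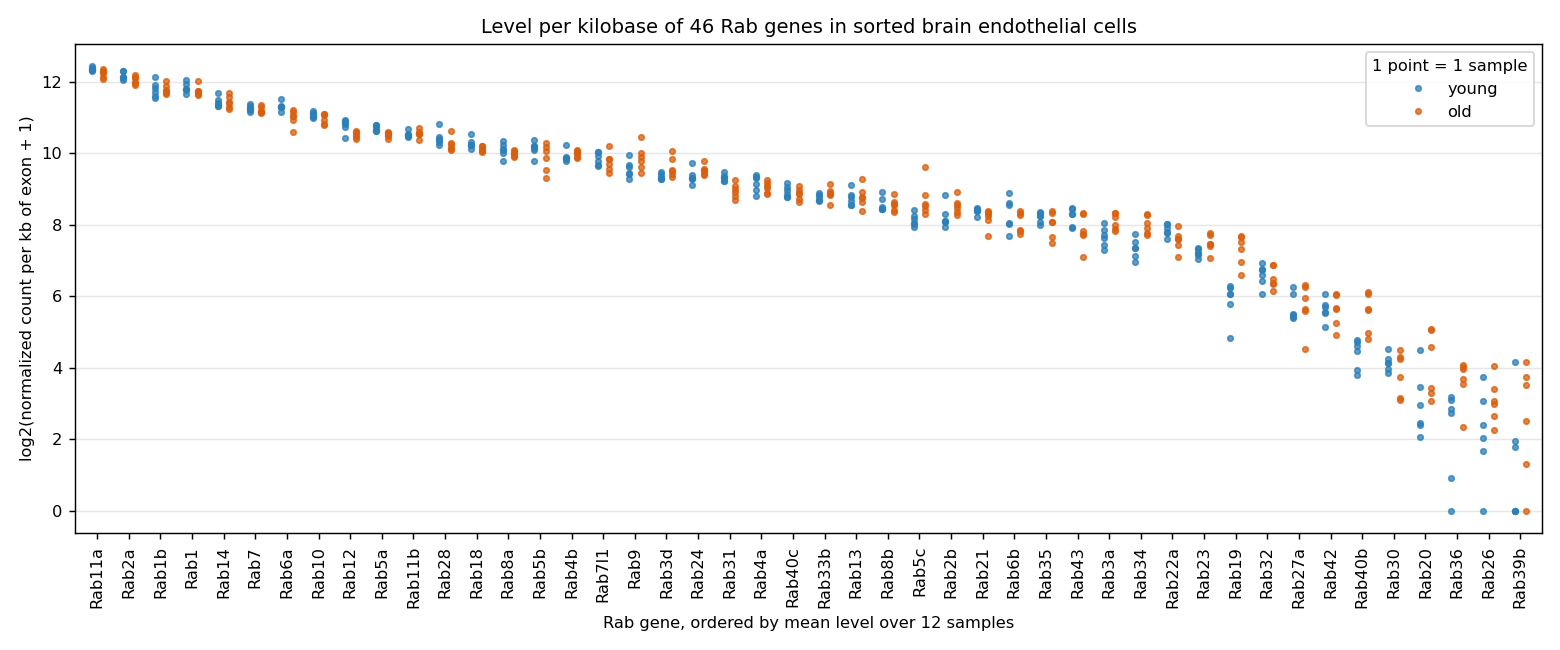
Level of each of the 46 Rab genes in normalized counts per kilobase of exon on a log axis, by sample and age. Rab11a, Rab2a, Rab1b and Rab1 stand at the top and Rab39b at the bottom, and for most genes the points of the ages lie over each other.

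Between the ages, 4 of the 46 Rab genes passed the test (limma on log2 of the normalized count plus 1, Benjamini-Hochberg adjusted p under 0.05 over all 12777 genes tested). Rab19, Rab34 and Rab40b were higher and Rab31 was lower in old samples. Over all genes tested 6.94% passed, 3.73% upward and 3.21% downward, and among the Rab genes 8.70% passed, so the share of Rab genes called was near the background. With edgeR on recovered reads 2 Rab genes rose and 0 fell, against 6.05% of 12580 genes called in either direction. At an unadjusted p under 0.05 (limma) there were 12 Rab genes of 46, against 23.8% of all genes. Old and young values did not overlap for 3 Rab genes, Rab19, Rab40b and Rab5a, against 4.29% of all genes. The log2 fold of old over young had a median of -0.04 over the Rab genes, with 26 of 46 below 0, against a median of -0.01 and 51.1% below 0 over all genes. With TMM scaling, edgeR and DESeq2, 26, 25 and 26 of the 46 were below 0. Under quantile normalization 20 of 46 were below 0 and the Rab median was 0.02. The majority direction thus turned under quantile normalization and not under the other scalings named.

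**Figure D2:**
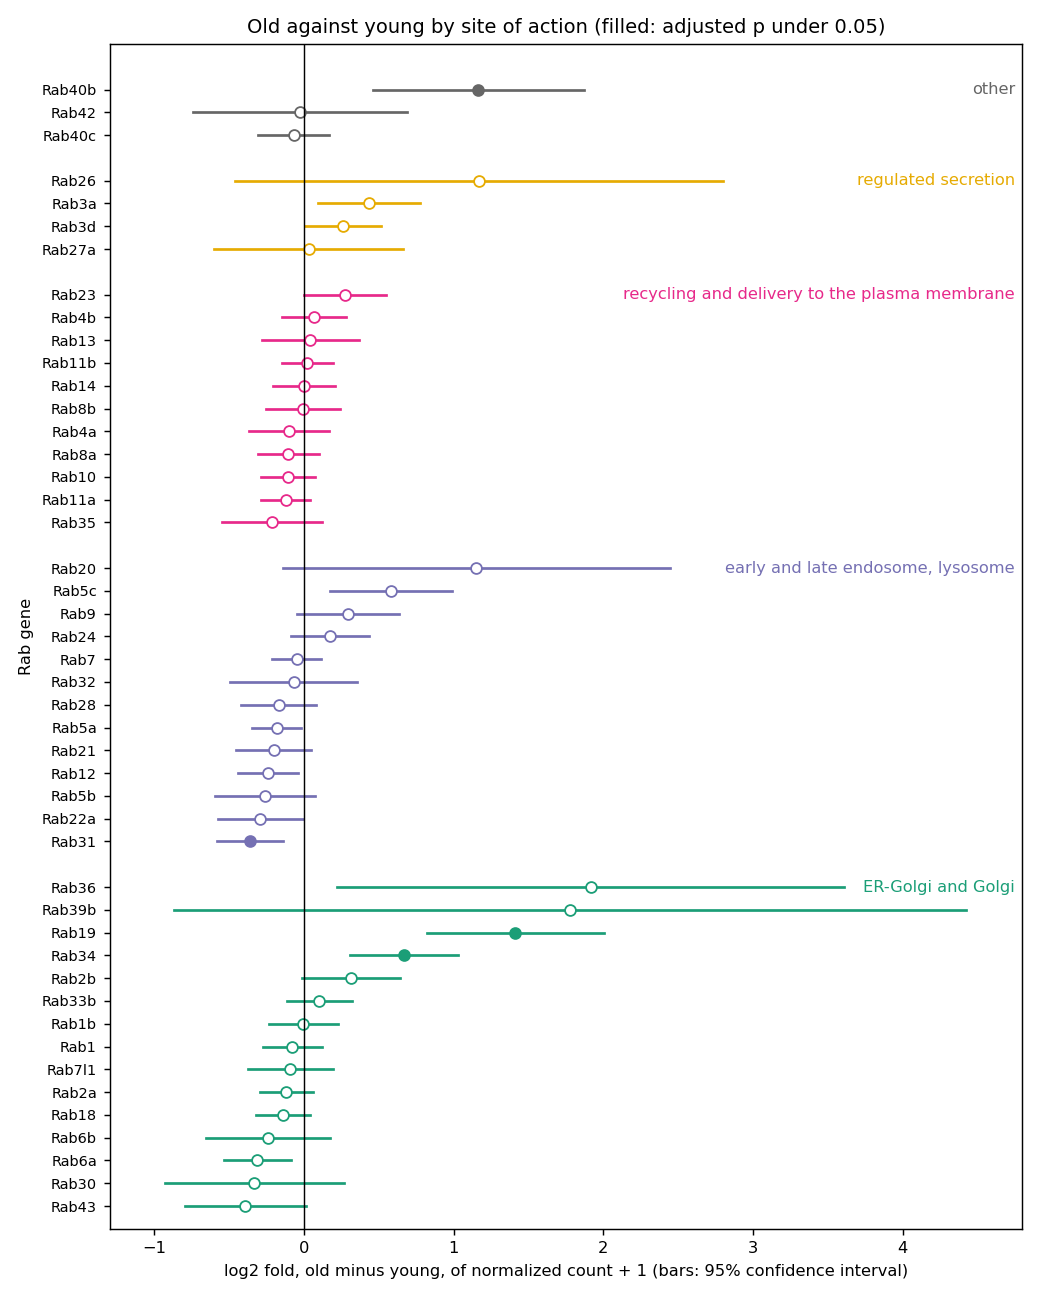
Log2 fold of old over young for each Rab gene, on normalized counts plus 1, with its 95% confidence interval, grouped by the transport step the protein serves. Rab19, Rab34 and Rab40b lie above 0 and Rab31 below 0 past the threshold, and the genes with the widest intervals are those with the lowest counts.

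Of the 15 Rabs of the ER and Golgi, 2 rose and none fell, and 9 had a log2 fold below 0 (median -0.08). Rab19, a little-studied Rab found at the Golgi, had the smallest p of all Rab genes. Its normalized count was 151 to 325 in old samples (median 267) and 43.8 to 122 in young samples (median 104). Every old sample lay above every young sample, and the lowest young value was that of young 2. The log2 fold was 1.41 (SE 0.28, 95% confidence interval 0.82 to 2.00, adjusted p = 0.00676). The call rested on 37 to 380 reads per sample and held when any sample was left out. With the mural score as a covariate the log2 fold was 1.40 and the adjusted p 0.0600, and with the astrocyte score 1.20 and 0.128.

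Rab34, which acts at the Golgi, in lysosome positioning and in building the primary cilium, was also higher. It had 372 to 555 normalized counts in old samples (median 449) and 219 to 380 in young samples (median 287). The groups met only where old 4, at 372, lay under young 3, at 380. The log2 fold was 0.67 (SE 0.17, interval 0.31 to 1.03, limma adjusted p = 0.0266). The call was lost without old 1, old 2, young 4 or young 5 (adjusted p 0.0580 to 0.0690), under quantile normalization (0.57, adjusted p = 0.0617), and with the mural (0.80, adjusted p = 0.0655) or astrocyte score (0.59, adjusted p = 0.272) as a covariate.

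Among the other Golgi Rabs the abundant ones were mostly somewhat lower in old samples without passing the test. Rab6a had 5316 to 8180 normalized counts in old samples (median 7258) and 7803 to 10022 in young samples (median 8628), a log2 fold of -0.31 (interval -0.54 to -0.09, limma adjusted p = 0.0858). In the annotation used, 22.3% of its sequence in 50-base words also occurs in other genes. Rab43, which serves receptor transport out of the ER, had a log2 fold of -0.39 (interval -0.80 to 0.01). For Rab43 90.4% of the 50-base words also occur in another gene, Gm45140, so its value is less certain still. Rab1b, Rab1 and Rab2a had log2 folds of -0.01, -0.08 and -0.12, each with an interval that includes 0. Rab18, known from lipid droplets and the ER, had -0.14, Rab7l1, also called Rab29 and known as a partner of the kinase LRRK2, had -0.09, and Rab30 and Rab6b had -0.33 and -0.24. Above 0 without passing were Rab33b, an autophagy Rab, at 0.10 and Rab2b at 0.31, which passed in 1 of 25 alternatives (lowest limma adjusted p = 0.0487). Rab36 at 1.91 and Rab39b at 1.77 had low counts, with intervals of 0.22 to 3.61 and -0.87 to 4.42. Without young 3 the log2 fold of Rab36 was 1.20.

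Of the 13 Rabs of endosomes and lysosomes, 1 fell and none rose, and 9 had a log2 fold below 0 (median -0.17). Rab31, which carries cargo between the trans-Golgi network and endosomes and acts in traffic of the EGF receptor, fell by 0.36 on the log2 scale (SE 0.10, interval -0.58 to -0.14, limma adjusted p = 0.0468). Its normalized count was 1572 to 2317 in old samples (median 1894) and 2259 to 2737 in young samples (median 2427). Only old 1, the highest old sample, reached into the young range. This call lay close to the threshold and was lost when any sample other than old 1 was left out. It was also lost without old 7, old 9 and young 9 (-0.28, adjusted p = 0.136), with edgeR on recovered reads (-0.35, adjusted p = 0.0611) and with the mural score (-0.23, adjusted p = 0.413) or the astrocyte score (-0.40, adjusted p = 0.216) as a covariate.

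The early endosome Rabs differed among themselves. Rab5a had 3187 to 3665 normalized counts in old samples (median 3510) and 3731 to 4151 in young samples (median 3923). No old sample reached the lowest young one, yet the difference was small (log2 fold -0.18, interval -0.35 to -0.02) and did not pass (limma adjusted p = 0.154). Rab5b had a log2 fold of -0.26 (interval -0.60 to 0.07). Its paralog Rab5c pointed the other way, with 619 to 1530 normalized counts in old samples (median 741) and 478 to 669 in young samples (median 542). The highest of these, 1530, came from old 9, and the other old samples ran to 902. The log2 fold of 0.58 (interval 0.17 to 0.99) did not pass with limma (adjusted p = 0.0816) and passed with DESeq2 on recovered reads (0.64, adjusted p = 0.0288). Without old 9 it was 0.40 (limma adjusted p = 0.102). Without old 7, old 9 and young 9 it was 0.36 (limma adjusted p = 0.175).

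Further along the endocytic route the differences were small or uncertain. Rab12 at -0.24, Rab22a at -0.29, Rab21, which takes part in integrin uptake, at -0.20, and Rab28, a ciliary Rab, at -0.17 were lower without passing. Of these, Rab12 passed in 1 of 25 alternatives (lowest limma adjusted p = 0.0319). Rab7 at -0.05 (interval -0.21 to 0.12) had one of the narrowest intervals. Rab32, which serves lysosome-related organelles, was at -0.07. Above 0 without passing were Rab9, which returns receptors from late endosomes to the Golgi, at 0.29, Rab24, an autophagy Rab, at 0.17 and Rab20, at 1.15 with an interval of -0.14 to 2.44.

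None of the 11 Rabs of recycling and delivery to the plasma membrane passed the test, and none had an unadjusted p under 0.05. Their log2 folds ran from -0.21 for Rab35, which acts in recycling from endosomes, to 0.27 for Rab23, a regulator of Hedgehog signalling, with a median of -0.01. For the most abundant of them the intervals were narrow. Rab11a had 10035 to 12264 normalized counts in old samples (median 11429.6) and 11794 to 12914 in young samples (median 12098), a log2 fold of -0.12 with an interval of -0.29 to 0.04. Rab14 was at 0.00 (interval -0.21 to 0.21), Rab11b at 0.02, and Rab10 at -0.11. Rab8a and Rab8b, which act in exocytosis and at the cilium, were at -0.11 and -0.01. Rab4a and Rab4b, of the fast recycling route, were at -0.10 and 0.07. Rab13, known from tight junctions, was at 0.04 (interval -0.28 to 0.36).

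The 4 Rabs of regulated secretion all had log2 folds above 0, and none passed. Rab3a, a Rab of synaptic vesicles, had 405 to 575 normalized counts in old samples (median 493) and 280 to 470 in young samples (median 363), a log2 fold of 0.43 (interval 0.09 to 0.78, limma adjusted p = 0.114). Of 12 neuron markers 5 were tested, 5 had folds above 0 and 1 (Stmn2, which supplied most of their sum) passed. Their summed level was 6157 to 12347 in old and 3131 to 3782 in young samples. By medians the 5 were mixed. Snap25 (20.5 in old and 25.1 in young samples, with old 7 at 690) and Gad1 (105 and 115) were lower in old samples. Stmn2 (7613 and 3270), Slc12a5 (425 and 240) and Nefl (14.1 and 9.84) were higher. The inhibitory neuron marker Gad2, too low to be tested, was at 0 in every old sample and at 0 to 16.5 in young samples (median 0). The part of neuronal RNA in the Rab3a values was not tested. Rab3d, which human endothelial cells carry on Weibel-Palade bodies, had a log2 fold of 0.26 (interval 0.01 to 0.51). Rab27a, a regulator of Weibel-Palade body release in human endothelial cells, was at 0.03 (interval -0.60 to 0.66), and Rab26 was at 1.17 with an interval of -0.46 to 2.80.

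Of the last 3 genes, Rab40b rose, while Rab40c, its paralog, and Rab42 had log2 folds of -0.07 and -0.03. Rab40b belongs to a branch of the family with a SOCS box, through which it joins a ubiquitin ligase, and in human cancer cells it directs secretion of matrix metalloproteases. It had 50.1 to 128 normalized counts in old samples (median 90.5) and 24.2 to 49.4 in young samples (median 41.7). Every old sample lay above every young sample, although the old values were widely spread. The log2 fold was 1.16 (SE 0.33, interval 0.46 to 1.87, limma adjusted p = 0.0455), on 21 to 150 reads per sample. The call was lost when any 1 sample other than old 3 or old 7 was left out (adjusted p 0.0536 to 0.0975), with edgeR on recovered reads (1.22, adjusted p = 0.0543), without old 7, old 9 and young 9 (1.06, adjusted p = 0.105), and with the mural (0.90, adjusted p = 0.313) or astrocyte score (1.46, adjusted p = 0.114) as a covariate.

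**Figure D3:**
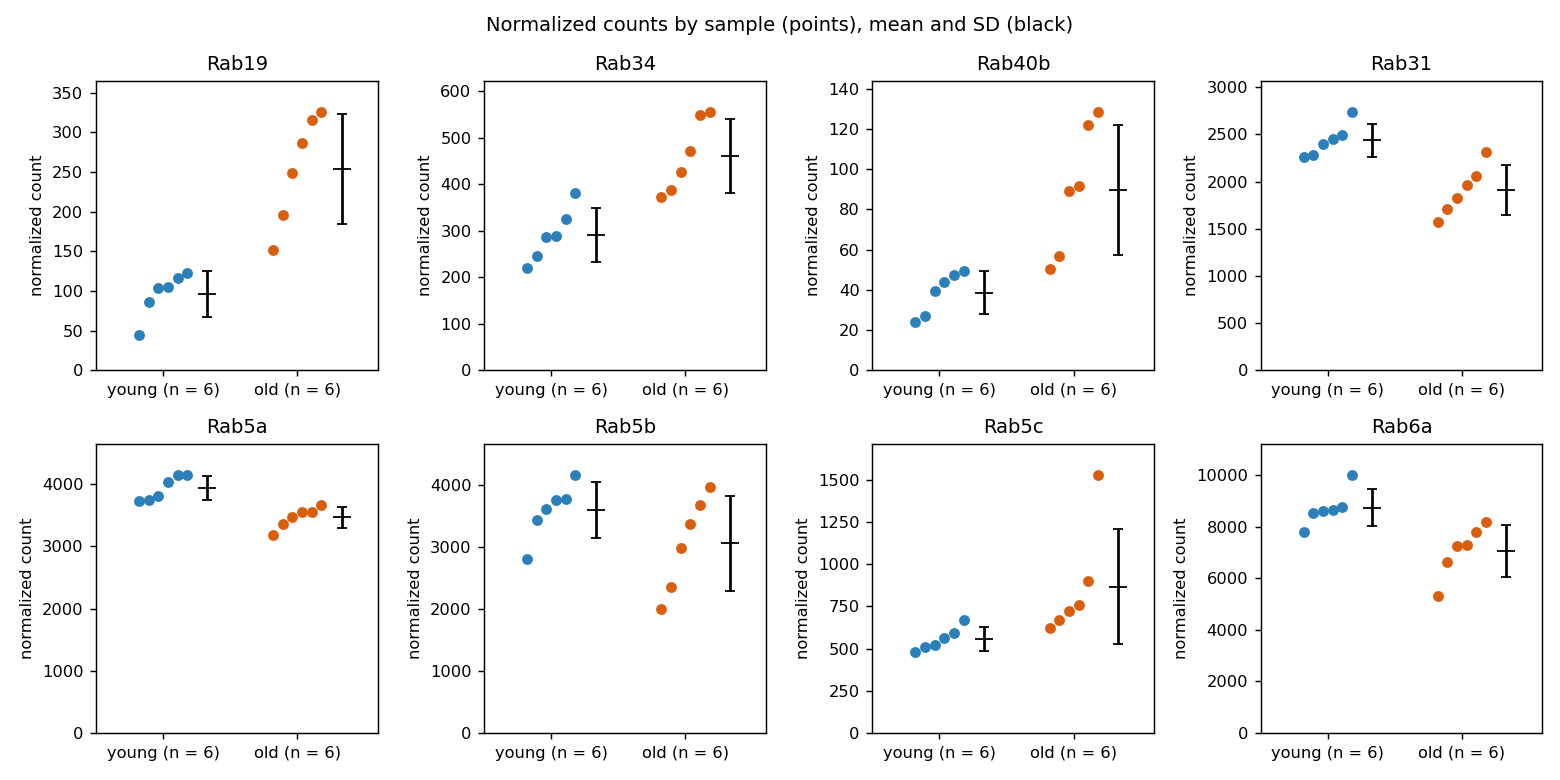
Normalized counts of the 4 Rab genes that passed the test and of further Rab genes, by sample (points), with the mean and SD of each age (n = 6 each). Rab19 and Rab40b separate the ages fully, Rab34 and Rab31 overlap at the edge of their ranges, and the highest Rab5c value is that of old 9.

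The 250 bases before the annotated start of 3 of the called genes and of Rab5a are shown because their expression differed or did not overlap between the ages. They come from RefSeq on GRCm38.p6, and the bases of an annotated exon lie outside each window. Rab19 is not shown, since annotated exons cover part of its window. Capitals mark 3 of 4 motifs searched on both strands, which do not overlap one another here: the CCAAT box (CCAAT, or ATTGG in reverse), the E-box CACGTG, which reads the same on both strands and is a core of sites for regulators of lysosomal genes, and the cAMP response element TGACGTCA. Rab40b and Rab31 are on the minus strand and are written in the direction of transcription.
Rab34 (upstream of 2 annotated starts), chr11:78188177-78188426, plus strand: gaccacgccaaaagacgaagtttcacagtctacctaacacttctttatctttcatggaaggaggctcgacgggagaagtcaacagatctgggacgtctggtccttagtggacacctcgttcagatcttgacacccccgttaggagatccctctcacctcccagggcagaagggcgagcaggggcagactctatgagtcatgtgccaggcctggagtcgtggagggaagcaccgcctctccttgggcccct
Rab40b, chr11:121388252-121388501, minus strand: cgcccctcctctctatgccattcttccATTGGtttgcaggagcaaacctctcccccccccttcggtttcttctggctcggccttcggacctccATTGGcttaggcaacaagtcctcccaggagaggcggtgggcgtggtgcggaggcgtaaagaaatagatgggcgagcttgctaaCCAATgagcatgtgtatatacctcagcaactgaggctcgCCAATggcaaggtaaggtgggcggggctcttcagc
Rab31, chr17:65772753-65773002, minus strand: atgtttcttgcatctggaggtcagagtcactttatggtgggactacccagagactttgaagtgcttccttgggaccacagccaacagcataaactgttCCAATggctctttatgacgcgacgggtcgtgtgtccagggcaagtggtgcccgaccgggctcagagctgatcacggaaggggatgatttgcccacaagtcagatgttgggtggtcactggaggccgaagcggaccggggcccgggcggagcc
Rab5a, chr17:53478984-53479233, plus strand: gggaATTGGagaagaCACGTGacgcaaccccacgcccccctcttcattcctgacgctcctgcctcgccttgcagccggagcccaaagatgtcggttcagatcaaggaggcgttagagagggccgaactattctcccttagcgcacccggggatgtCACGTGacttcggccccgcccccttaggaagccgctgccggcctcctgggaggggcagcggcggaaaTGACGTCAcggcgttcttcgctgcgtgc

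The windows differ in what they hold. Rab40b carries 4 CCAAT boxes, a number reached by 0.840% of 32851 windows of the same length, and Rab31 carries 1, as do or exceed 33.8% of them. Rab34 holds none of the 3 capitalised motifs in this window. Rab5a holds 1 CCAAT box, 2 E-boxes and 1 cAMP response element. At least 1 E-box is present in 6.02% of all windows and the cAMP response element in 1.55%. Of the 46 Rab genes, 40 had a window in the RefSeq table, and 22 of these first windows include bases of an annotated exon. In the first window 19 of the 40 held a CCAAT box and 4 an E-box, and over all windows of a gene 21 and 5 did. The first windows of 2 of the 40, Rab40b and the uncalled Rab5b, held 4 or more CCAAT boxes. The GC box, GGGCGG on either strand, was searched too and is not in capitals. It occurs in the windows of Rab40b, Rab31 and Rab5a, in the first window of 28 of the 40 Rab genes and in 32.7% of all windows. A match is a description of the letters and does not show that a factor binds there.

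Within subfamilies, the share of a paralog was its level per kilobase divided by that of the subfamily, which is independent of the scaling between samples. Of 9 shares compared, 2 differed between the ages (two-sided exact permutation test of the age labels, adjusted over the 9). Rab5c made up 11.1% to 26.3% of the Rab5 level in old samples (median 13.8%) and 7.94% to 11.1% in young samples (median 9.17%). The ranges touched, old 9 was far above the rest, and the difference in means was 6.15 percentage points (exact p = 0.00433, adjusted p = 0.0195). Without old 9 the difference was 3.96 points and still passed (exact test, adjusted p = 0.0292).

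Rab40b made up 5.44% to 14.1% of the sum of Rab40b and Rab40c in old samples (median 8.56%) and 2.90% to 5.23% in young samples (median 4.12%). No old sample fell into the young range. The difference was 5.34 points, with the smallest p this exact test can give (0.00216, adjusted p = 0.0195). Rab40c differed little between the ages (log2 fold -0.07) and had a mean of 480 per kilobase, beside 34.5 for Rab40b. The share of Rab40b therefore largely repeats its own counts and is no separate support for its call. Both shares lost the call when any of young 2, young 3, young 4 or young 5 was left out (exact test, adjusted p 0.0584 to 0.0779), with differences between 5.12 and 6.20 points.

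The other 7 shares did not pass. Rab11b made up 23.8 ± 1.35% (SD, n = 6) of the Rab11 level at the old and 22.1 ± 1.26% (SD, n = 6) at the young age (exact p = 0.0433, adjusted p = 0.117). Rab2b made up 8.10 ± 1.09% and 6.23 ± 1.72% of the Rab2 level (exact p = 0.0519, adjusted p = 0.117), with young 9 at 9.68% above the other young samples, and without young 9 the difference passed (2.55 points, exact test, adjusted p = 0.0390). The annotation used shares 77.6% of the Rab2b exon bases with other genes, and reads from the shared bases cannot be assigned to it with certainty. Rab1b held 50.6 ± 3.83% of the Rab1 level in old and 49.3 ± 4.81% in young samples, Rab3d held 73.9 ± 4.86% and 76.3 ± 2.89% of the Rab3 level, and Rab6b held 11.6 ± 1.65% and 11.3 ± 2.62% of the Rab6 level. The remaining pairs showed the b form as the larger part for Rab4 and the smaller part for Rab8 at both ages.

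**Figure D4:**
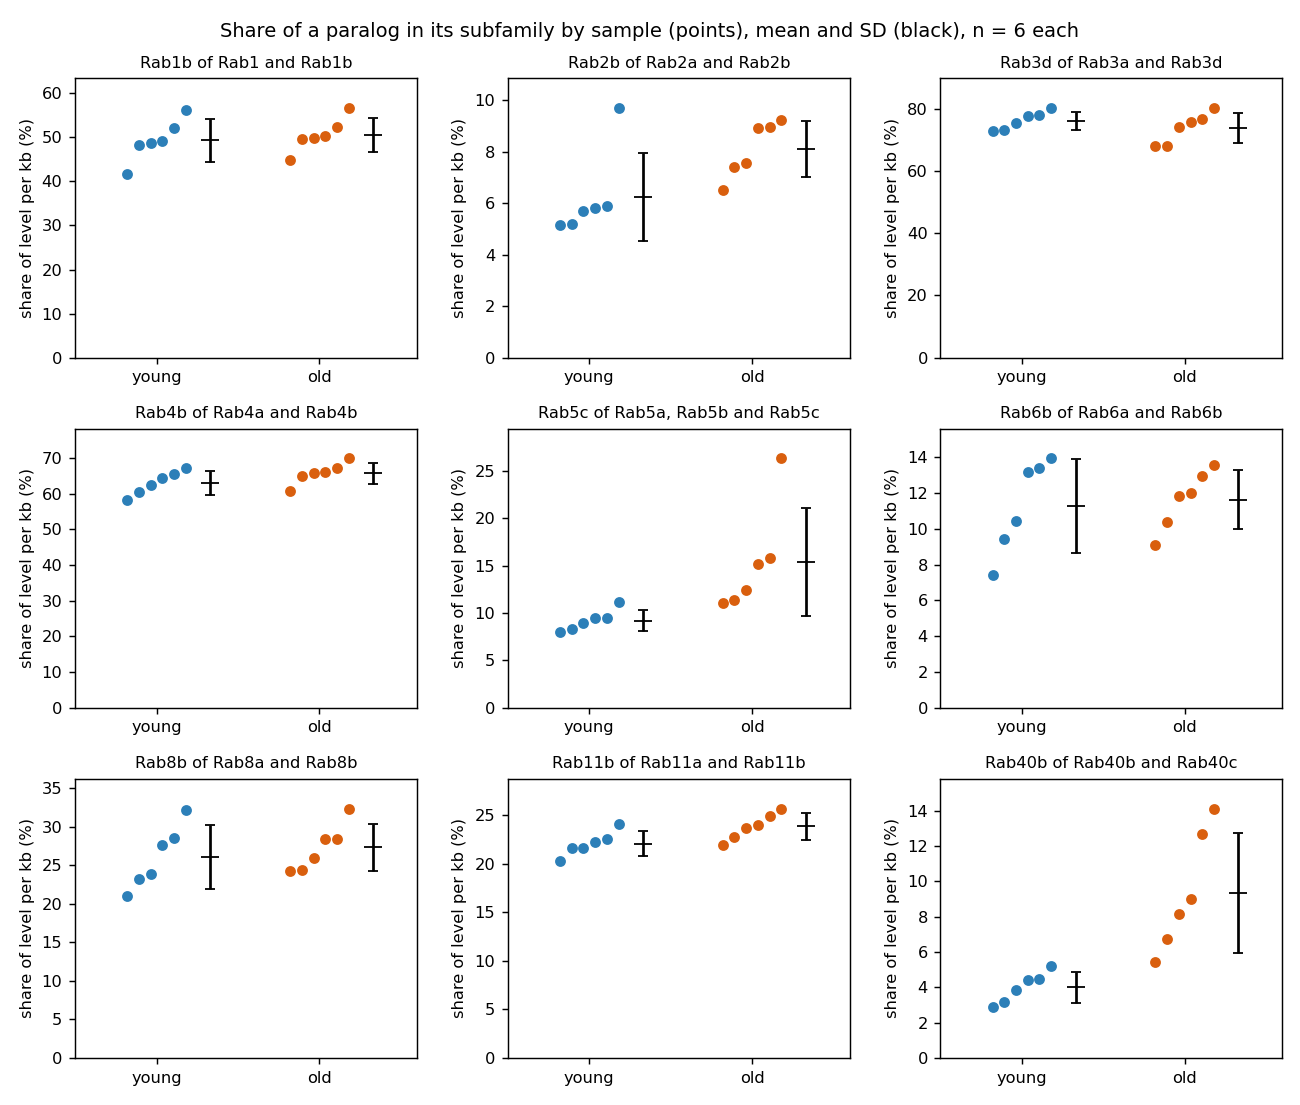
Share of one paralog in its subfamily, in percent of the level per kilobase, by sample (points) with mean and SD (n = 6 each). Rab40b separates the ages, Rab5c nearly so with old 9 highest, and the other 7 shares overlap.

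On the scaling as deposited, the direction of the Rab differences went with the level of the gene. The bounds of these classes were chosen after the values were seen, and no test is given. Of the 27 Rab genes with a mean of 1000 normalized counts or more, 21 had a log2 fold below 0 (median -0.11), beside 3512 of 5734 among all genes of that level (median -0.07). Of the 13 with a mean of 100 to 1000, 9 were above 0 (median 0.17), beside 2674 of 4627 among all genes (median 0.07). Of the 6 with a mean of 10 to 100, 5 were above 0 (median 1.17), beside 1353 of 2416 (median 0.11). With TMM scaling, edgeR or DESeq2, 21 of the 27 most abundant Rab genes were again below 0 (median -0.11 in each). Under quantile normalization 14 of the 27 were below 0 (median -0.01). In that scaling 8 of the 13 in the middle class and 5 of the 6 lowest were above 0. The medians of all genes in these classes were then -0.01, -0.02 and -0.11. The pattern among abundant Rab genes and among all genes was thus absent under quantile normalization and present under the other scalings named. Quantile normalization gives every sample the same distribution of values, which by construction removes most of a shift that follows level. The other scalings apply a single factor per sample and cannot remove it. The outcome therefore followed largely from the scalings and is no test of the pattern.

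Genes that load, switch off or are recruited by Rab proteins were taken from lists of 191 entries, of which 186 matched the table and 177 were tested. Of these 2 rose and 6 fell, 4.52% in all, beside 6.94% of all genes tested. A log2 fold below 0 was found for 118 of 177 (median -0.11), beside 51.1% of all genes (median -0.01). Among all genes with a mean of 1000 or more it was found for 3512 of 5734 (median -0.07). Old and young values did not overlap for 8 of the 177, beside 4.29% of all genes. The chaperone, escort and prenylation list had no member past the threshold among 9 tested, with Rabggtb, a subunit of the enzyme that attaches the lipid anchor, nearest (log2 fold 0.43, limma adjusted p = 0.127).

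Of 41 exchange factors, 1 passed. Rin3, an exchange factor of the Rab5 family, had 2566 to 3836 normalized counts in old samples (median 3064) and 4192 to 7244 in young samples (median 4844). The groups did not overlap, and the log2 fold was -0.77 (interval -1.07 to -0.46, limma adjusted p = 0.00466). Of 36 genes for GTPase-activating proteins, 1 passed and 27 were below 0 (median -0.16), beside 51.1% of all genes below 0. Tbc1d14, a member of this family that binds Rab11 and takes part in autophagy, had 2246 to 4466 normalized counts in old samples (median 3161) and 3728 to 7162 in young samples (median 5503). It overlapped between the ages, with a log2 fold of -0.77 (interval -1.16 to -0.39, limma adjusted p = 0.0179).

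The Rab5 effectors had no call among 13 tested. Ankfy1, an early endosome effector of Rab5, came nearest, with a log2 fold of -0.70 (interval -1.17 to -0.24, limma adjusted p = 0.0657). Among 16 effectors of Rab4 and Rab11, 1 rose and 2 fell. Sh3tc1 had 3693 to 5506 normalized counts in old samples (median 4720) and 6140 to 8536 in young samples (median 6725), with a log2 fold of -0.60 (limma adjusted p = 0.00844). Sh3tc2, a Rab11 effector known for its part in Schwann cells, had 1090 to 2899 in old samples (median 1951) and 2353 to 3836 in young samples (median 3169), which overlapped. Its log2 fold was -0.70 (limma adjusted p = 0.0484), and it lost the call in 17 of 25 alternatives. Ehd3, which shapes recycling tubules, had 1935 to 2345 normalized counts in old samples (median 2073) and 1257 to 1852 in young samples (median 1473), a log2 fold of 0.46 (limma adjusted p = 0.0225). Sh3tc1 and Ehd3 did not overlap between the ages. Ehd3 and Tbc1d14 each lost the call in 4 of 25 alternatives, Ehd3 without young 3 among them.

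All 9 tested genes of the exocyst, the complex that tethers recycling vesicles at the plasma membrane, had log2 folds below 0 (median -0.16) and none passed. Over all genes 51.1% were below 0. Exoc5 came nearest, with 2754 to 4048 normalized counts in old samples (median 3624) and 4245 to 4673 in young samples (median 4394), a log2 fold of -0.31 (limma adjusted p = 0.0642). The 20 genes of the late endosome effectors, HOPS and retromer had no call and a median of -0.01, with Rilpl1, which binds phosphorylated Rabs, nearest (-0.36, limma adjusted p = 0.0748). The 7 tested secretion effectors of Rab27 and Rab3 had no call, with Rph3al nearest (-0.43, limma adjusted p = 0.0684).

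Among 18 Golgi tethers and motor adaptors, a pair of paralogs passed in opposite directions. Bicd2, an adaptor that links Rab6 vesicles to dynein, had 1845 to 4025 normalized counts in old samples (median 2793) and 4183 to 5720 in young samples (median 5172), a log2 fold of -0.87 (interval -1.23 to -0.51, limma adjusted p = 0.00587). Bicd1, its less abundant paralog, had 88.4 to 231 in old samples (median 157) and 4.61 to 85.3 in young samples (median 42.1), a log2 fold of 2.10 (interval 0.96 to 3.24, limma adjusted p = 0.0267). Neither overlapped between the ages, but Bicd1 lost the call in 9 of 25 alternatives, among them leaving out old 2, old 7, young 4 or young 5, and with the astrocyte score as a covariate its log2 fold was 1.32. Ppm1h, the phosphatase that removes the phosphate placed on Rabs by LRRK kinases, had 857 to 1136 normalized counts in old samples (median 1057) and 1202 to 1589 in young samples (median 1300). It did not overlap, with a log2 fold of -0.40 (limma adjusted p = 0.0360), and lost the call in 12 of 25 alternatives. Of the 5 Weibel-Palade body genes tested none passed. The nearest was Angpt2, a stored ligand of the receptor Tie2, with a log2 fold of 0.73 (limma adjusted p = 0.0752).

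With the mural score as a covariate 1 of the 177 partner genes passed as lower and 0 as higher, and with the astrocyte score 0 passed in either direction. Over all genes tested, these fits called 178 higher and 92 lower, and 144 higher and 87 lower.

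**Figure D5:**
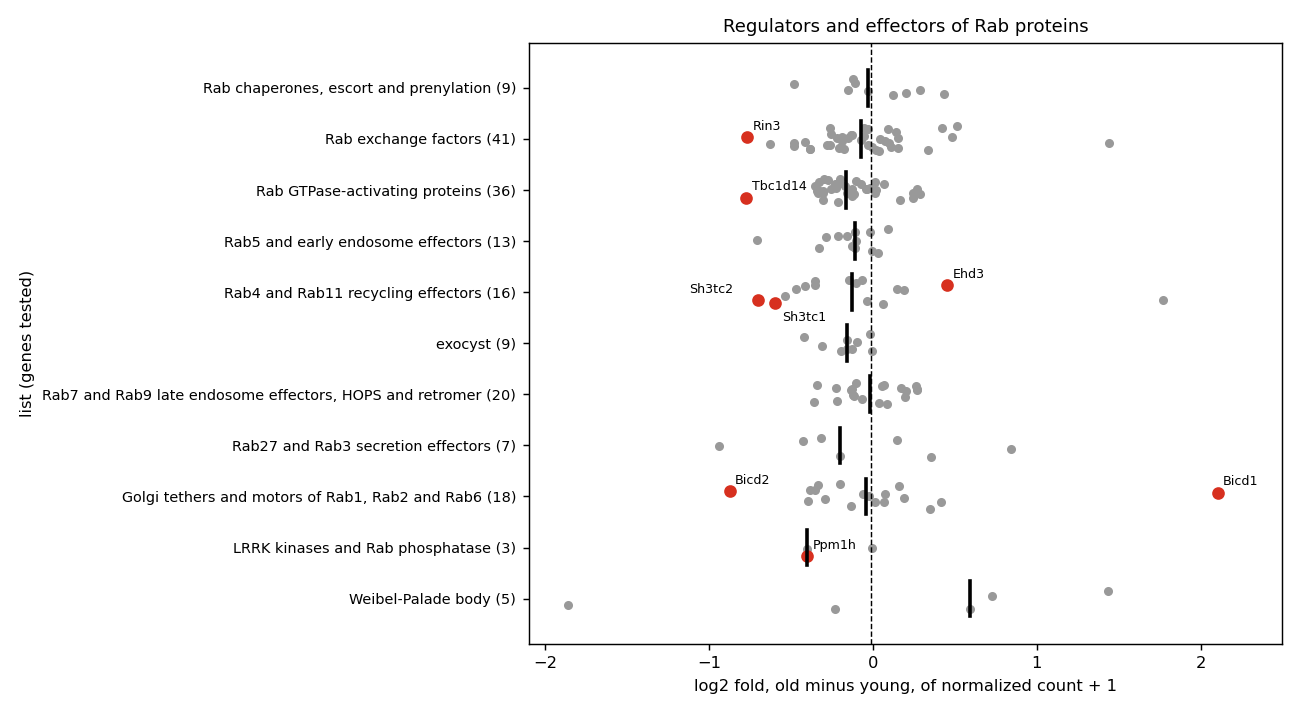
Log2 fold of old over young of the tested regulators and effectors by list (grey points), with the median of each list (black bar), genes past the threshold (red, named) and the median of all genes (dashed line). Bicd1 and Ehd3 lie to the right of 0, and Rin3, Tbc1d14, Sh3tc1, Sh3tc2, Bicd2 and Ppm1h to the left.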

How the data were processed

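RNA of sorted brain endothelial cells was measured in 12 pools, 6 per age. The submitters' processing notes name mm9 as the build and list R 3.2.2, Cuffdiff 2.2.1, STAR 2.4.2a and FastQC 0.11.2. Which of them counted reads, and on which annotation, is not given in the sources used here. Each deposited value is a signal per gene that the authors called normalized counts: in each deposited column 100% of values were whole reads times a constant, within 0.001. Each sample had between 25809499 and 40393814 reads in genes. Whether the pools are of separate animals is not stated in the labels, and p-values then measure only how these samples spread. Intervals on counts are not given, and replicate spread is used instead. Samples of the same age all differed by more than sampling noise (lowest chi-square per degree of freedom 34.0, genes with at least 20 reads).

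Genes with a mean of at least 10 (12777) were tested with limma 3.58.1 in R 4.3.3 on log2(value + 1), with age as the only term and a variance trend, p-values adjusted after Benjamini and Hochberg across the 12777 and a threshold of 0.05. The test was tried on simulated data. For low genes a fold on this scale can depart from the ratio of the group means. A score is the mean log2 value of a marker list. Alternatives were pseudocounts of 0.1 and 10, no filter, a mean of at least 50, TMM scaling, quantile normalization, edgeR 4.0.16 and DESeq2 1.42.0 on recovered reads, the replicate number as a block, marker scores as covariates, leaving out old 7, old 9 and young 9, and leaving out each sample, 25 in all with 1 added after seeing the data. For the added one the 10 samples of the block were fitted without it. Shares of paralogs were compared by a two-sided exact permutation test over every way to label 6 of the 12 samples. No p is given for the summed Rab level, since its members were chosen. Exon lengths and overlaps came from the union of exons in GENCODE M21 on GRCm38, not the build of the files. The 50-base words came from the longest protein-coding transcript of each Rab gene in GENCODE M21. They were sought in the transcripts of other genes on both strands. Promoter windows came from RefSeq on GRCm38.p6. Of 46 Rab genes, 7 shared over 20% of their 50-base words with other genes, namely Rab6a, Rab2b, Rab4b, Rab43, Rab24, Rab20 and Rab33b, whose values are less certain. The share was highest for Rab43 (90.4%), Rab4b (80.3%) and Rab2b (74.2%). For Rab19, Rab34, Rab40b and Rab31 the share was 0%.

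The Rab genes, their grouping by transport step and the lists of partners and markers were chosen with earlier results of these data known. Values are given for Rab genes past the threshold, the 10 with the highest level per kilobase and paralogs of a subfamily in which a member passed, and for each partner list at most 3 genes that passed, taken by p, or the nearest one where none did. Other genes given values, Rab5c among them, were chosen after their values were seen, in accounting for every member.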

Additional observations from a re-analysis of the deposited data

Results flagged for a closer look

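In 140 groups of 6 samples, each a Rab gene, a named partner, a paralog share or the summed Rab level in 1 age, the distance of the highest or lowest sample from its nearest neighbour was set against the whole range, and chance flags about 1 in 20 such groups. In 11 of them a sample stood apart. Old 9 had 11776 normalized counts of Rab1, beside 9013 to 9754 in the other old samples. For Rab5c it had 1530, beside 619 to 902, and for the Rab5c share of the Rab5 level 26.3%, beside 11.1% to 15.8%. Young 9 had 1318 for Rab2b, beside 706 to 912 in the other young samples, 9.68% for the Rab2b share, beside 5.15% to 5.87%, and 57.4 for Rab39b, beside 0 to 9.90. The astrocyte score of young 9 was 10.9, above the 7.35 to 8.91 of the other young samples.

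The number 1 samples stood apart for Rab28 at both ages, with 2731 in old 1, beside 1871 to 2155, and 3097 in young 1, beside 2082 to 2454. Young 1 had 1431 for Rab4b, beside 1058 to 1143. Among partners, old 7 had 2754 for Exoc5, below 3611 to 4048 in the other old samples, and old 1 had 2838 for Rilpl1, above 1896 to 2230.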

How the results depend on the processing

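Among the called Rab genes, Rab19 kept its call in 23 of 25 alternatives, Rab34 in 16, Rab31 in 6 and Rab40b in 5, all with the same direction. Of the uncalled Rab genes, Rab5c, Rab12 and Rab2b each passed in 1 alternative. The number of Rab genes higher in old samples, 3 in the report, was 1 under quantile normalization, 1 with the replicate block and 1 in the same 10 samples without it, 0 with the mural or the astrocyte score as a covariate, 2 with edgeR and 4 with DESeq2, which adds Rab5c. Leaving out single samples gave 1 to 3. The number lower, 1 in the report, was 0 with no filter, quantile normalization, edgeR, the replicate block, the same 10 samples without it, without old 7, old 9 and young 9, and with either score. Leaving out single samples gave 0 to 1. Partner genes higher, 2 in the report, were 4 with DESeq2, 1 in the 10 samples without the block, 1 without the 3 samples, 0 with either score, and 1 to 4 with single samples left out. Partner genes lower, 6 in the report, were 14 with DESeq2, 1 with the mural and 0 with the astrocyte score, and 4 to 11 with single samples left out, with 11 without young 9.

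The correlation of the deviations of same-numbered samples ran from -0.16 to 0.10 over 5 numbers, and each old sample matched a young sample of another number better. Whether the numbers mark pairs is not settled by this, since more genes were called with the block than without it. With the replicate block 299 genes were called higher and 311 lower, and in the same 10 samples without it 261 and 211, beside 477 and 410 in all 12. DESeq2 called 746 higher and 661 lower, and single samples left out gave 310 to 698 higher and 244 to 529 lower, the most without young 9. The log2 fold of Rab34 was 0.58 with the block (adjusted p = 0.104) and in the same 10 samples without it (adjusted p = 0.1002).

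With single samples left out, the Rab5c share difference was 3.96 to 7.00 points, that of Rab40b 4.39 to 6.13, that of Rab2b 1.64 to 2.55, that of Rab1b -0.27 to 2.65 and that of Rab6b -0.43 to 0.88. Changes of direction occurred only in genes that did not pass, with log2 folds near 0 or wide intervals. Under quantile normalization the log2 fold was 0.061 for Rab1, 0.00089 for Rab10, 0.11 for Rab1b, 0.0061 for Rab2a, 0.050 for Rab7, 0.029 for Rab11a, 0.028 for Rab8b and -0.15 for Rab27a. With the astrocyte score it was 0.070 for Rab32, 0.0040 for Rab40c, 0.13 for Rab1b, -0.12 for Rab14 and -1.11 for Rab39b, and with the mural score -0.061 for Rab11b, 0.0013 for Rab1b, -0.0732 for Rab14 and 0.11 for Rab42. With the replicate block, and equally in the same 10 samples without it, it was 0.0061 for Rab32, -0.072 for Rab14 and -0.049 for Rab13. Without old 7, old 9 and young 9 it was -0.0313 for Rab11b, -0.046 for Rab14, -0.060 for Rab13, 0.15 for Rab42 and 0.11 for Rab8b, and with edgeR 0.0074 for Rab42. With single samples left out the folds ran from -0.17 to 0.0045 for Rab32, -0.0086 to 0.058 for Rab11b, -0.053 to 0.064 for Rab1b, -0.049 to 0.050 for Rab14, -0.056 to 0.12 for Rab13, -0.12 to 0.11 for Rab42, -0.066 to 0.063 for Rab8b and -0.091 to 0.27 for Rab27a. In all of these the cause was not tested. Depth limits the genes with lowest counts, such as Rab36 and Rab39b, whose intervals are the widest.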
